A study of Mus musculus with 24 samples.

Results

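Metallothioneins and the enzymes that remove superoxide and peroxides were followed in the livers of 24 mice, 1 array per mouse. The genes were chosen by name: Mt1, Mt2, Sod1, Sod2, Cat, Gpx1, Gpx4, Prdx1, Prdx6 and Gsr. A probe set, the unit the array measures, was taken where the platform table gave it 1 of these symbols and no other. This rule found 19 of the 45101 probe sets and 8 of the 10 genes. The probe sets of Prdx1 carry a second symbol in that table, and Prdx6 has no probe set with it as the only symbol. The levels of Prdx1 and Prdx6 were therefore not analysed here. Of the 19 probe sets, 18 lay over the filter on dim signals, and the 8 genes were among the 13113 genes tested.

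Metallothioneins are small, cysteine-rich proteins that bind zinc, copper and cadmium, and their genes in liver are switched on by metals through the transcription factor MTF1, by glucocorticoids and in the acute-phase response. Superoxide dismutases turn superoxide into hydrogen peroxide. Catalase and the glutathione peroxidases then break the peroxide down, and glutathione reductase restores the glutathione that the peroxidases consume, at the cost of NADPH.

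All animals were male BALB/c mice, received at 6 weeks of age, kept for 1 week on a nonpurified diet and later fed the purified AIN93G diet for 14 days. The STZ group received 185 mg/kg streptozotocin, an alkylating glucose analogue that destroys pancreatic beta cells, and the plain diet. Groups with the same injection received the diet with 0.1% or 0.5% quercetin, a plant flavonol. The controls were untreated mice on the plain diet, with no vehicle injection named in the labels. There were 6 mice in each group. The 18 mice given streptozotocin entered the diets 1 week after the injection and were picked for a non-fasting glucose of 230 to 400 mg/dL. Cages held 3 mice, and no label ties a mouse to a cage, so an effect of the cage and that of the group cannot be told apart.

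Mean deposited intensity per array ranged from 61.0 to 102.0, and the correlation between arrays from 0.969 to 0.987. On the first principal component, with 22.4% of the variance, STZ mice lay between -0.864 and 15.0, mice on 0.1% quercetin between -0.424 and 19.6, and controls between -18.3 and -13.5. Replicates 5 and 6 on 0.5% quercetin lay at -17.2 and -19.2, beside the controls and apart from their own group, so the members' results for that group are given with and without them. The choice of these mice rests on their likeness to controls in these same data. Leaving them out therefore tends to widen the difference of that group from controls, and the p-values without them are no separate test. The Gapdh control probe sets read the 3' and 5' ends of 1 transcript, and their difference serves as a measure of RNA quality. The 3' minus 5' difference was -0.34 ± 0.10 (log2) in STZ mice, -0.32 ± 0.15 on 0.1% and -0.21 ± 0.17 on 0.5% quercetin, and -0.04 ± 0.17 in controls (SD, n = 6 each). The difference between STZ mice and controls had an exact permutation p of 0.00433 (0.052 adjusted over 12 tests, two-sided), and that between 0.1% quercetin and control mice 0.013 (0.078 adjusted). Because the Gapdh difference went with the groups, a fit with it as a covariate cannot tell RNA quality and group apart. The beta-actin control probe sets gave exact permutation p-values of 0.19 or more. All 8 hepatocyte markers measured, among them Alb and Ttr, were tested and 0 passed in any comparison in limma. Their summed intensity was 50795 to 53827 in STZ mice, 51687 to 53359 on 0.1% and 51117 to 52476 on 0.5% quercetin, and 50370 to 52302 in controls. The arrays read whole liver, so a change in the number of cells of a type and a change in RNA per cell cannot be told apart.

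The promoters of the metallothionein pair are shown because metal response elements, the sites that MTF1 binds, are what these genes are known for, and because the levels of both genes moved together in the mice. The sequences are the 250 bases before the start of each gene in RefSeq (GRCm38.p6), 5' to 3', with capitals on each match to the core of a metal response element on either strand. The core was searched as TGCACNC and TGCGCNC, and no marked match overlaps another. The window of Mt2 is chr8:94172368-94172617 and that of Mt1 chr8:94178839-94179088, both on the plus strand.
Mt2: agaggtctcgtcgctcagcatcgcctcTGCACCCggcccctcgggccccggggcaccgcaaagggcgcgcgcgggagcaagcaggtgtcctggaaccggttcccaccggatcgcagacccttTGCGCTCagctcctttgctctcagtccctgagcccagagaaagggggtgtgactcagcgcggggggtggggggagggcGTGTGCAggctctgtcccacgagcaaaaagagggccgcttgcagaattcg
Mt1: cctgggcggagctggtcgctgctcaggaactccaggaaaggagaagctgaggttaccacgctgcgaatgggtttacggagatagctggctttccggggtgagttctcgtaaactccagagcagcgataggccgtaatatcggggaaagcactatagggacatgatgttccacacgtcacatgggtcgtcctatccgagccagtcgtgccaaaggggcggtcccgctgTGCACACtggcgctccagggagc

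In the 300 bases from 250 before to 50 after the start, Mt2 held 4 core matches, which began 223, 128 and 50 bases before the start and 5 bases after it. Mt1 held 3, which began 23 bases before the start and 3 and 21 bases after it. These starts are the ones listed in RefSeq, and whether transcription in these livers began there was not tested. Bases past 50 after the listed start were not searched. Of 32851 mouse promoters of that length, 25.7% held at least 1 match, 1.97% at least 3 and 0.517% at least 4. The promoters of Sod1, Sod2, Cat, Gpx1 and Prdx1 and the 4 listed for Gpx4 held 0. The core of the antioxidant response element, which NRF2 binds, was searched as TGACNNNGC on both strands. It occurred 1 time each in the windows of Mt2, Sod1 and Prdx1 and 0 times in those of the other genes, against at least 1 match in 12.4% of promoters. These matches describe letters in a window and say nothing of binding or of elements outside the window, for Mt1 as for the other genes. No promoter of Gsr or Prdx6 was listed in the source used, so neither was searched.

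The probe set of highest mean signal stood for each gene: 1422557_s_at for Mt1, 1428942_at for Mt2, 1459976_s_at for Sod1, 1448610_a_at for Sod2, 1416430_at for Cat, 1460671_at for Gpx1, 1451695_a_at for Gpx4 and 1421817_at for Gsr. In the maker's naming, the endings _s_at and _x_at mark probe sets whose probes can match more than 1 transcript.

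The 2 metallothioneins were the members with the largest differences between groups, and they were also the ones that varied most among mice fed and treated alike. Both stood highest in STZ mice on 0.1% quercetin, then in STZ mice, then in STZ mice on 0.5% quercetin, and lowest in controls. Against controls, the mice on 0.1% quercetin had 4.04-fold more Mt1 signal and 2.89-fold more Mt2 signal, and these changes passed the test. No difference in either gene passed between any 2 of the groups given streptozotocin.

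The log2 level of Mt1 (lowest, median and highest mouse) was 6.14, 8.22 and 9.63 in STZ mice, 7.77, 9.07 and 10.32 on 0.1% quercetin, 6.97, 7.72 and 8.64 on 0.5% quercetin, and 6.10, 7.20 and 7.34 in controls. Levels are log2 of the quantile-normalized intensity plus 16, a constant that shrinks the folds of dim probe sets. In linear intensity the median mouse had 301 in the STZ group, 551 on 0.1% quercetin, 198 on 0.5% quercetin and 131 in controls. All 6 mice on 0.1% quercetin lay above all 6 controls, while the STZ group ran from the level of the lowest control to above every mouse on 0.5% quercetin.

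Mt2 had log2 levels of 5.83, 7.19 and 8.17 in STZ mice, 6.62, 7.48 and 8.43 on 0.1% quercetin, 5.70, 6.41 and 7.02 on 0.5% quercetin, and 5.08, 5.99 and 6.38 in controls. Its median linear intensity was 130 in STZ mice, 176 on 0.1% quercetin, 69.6 on 0.5% quercetin and 47.7 in controls. Again the 0.1% quercetin mice all lay above the controls, and the remaining groups overlapped the controls.

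**Figure D1:**
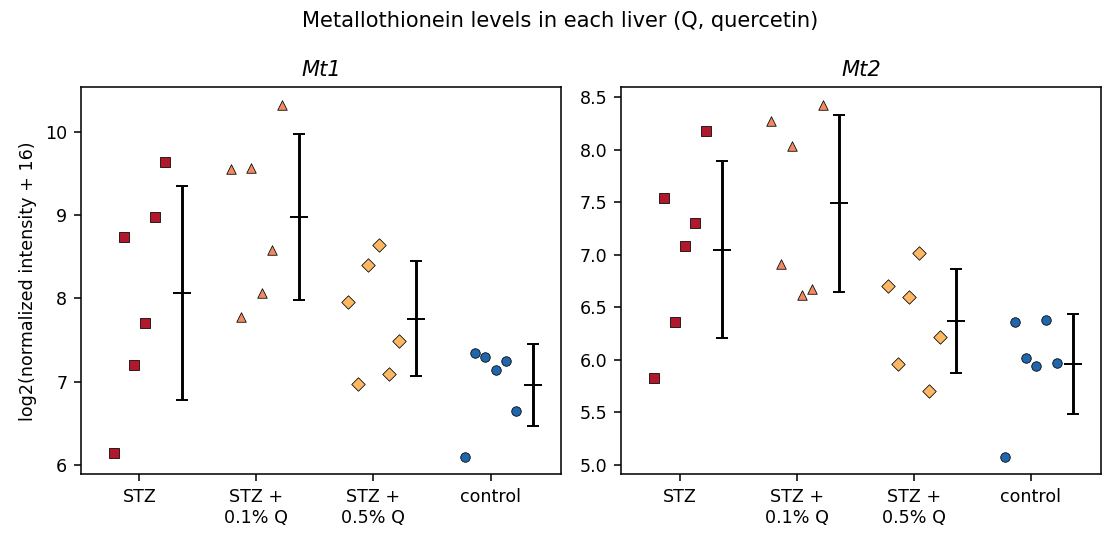
Mt1 and Mt2 levels as log2(normalized intensity + 16) in each of the 24 livers, with STZ, STZ with 0.1% quercetin, STZ with 0.5% quercetin and control from left to right. Each symbol is 1 mouse and the bars beside them are mean ± SD (n = 6). The mice on 0.1% quercetin all lie above the controls for both genes, and the STZ mice spread over most of the axis.

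Mean Mt1 was 8.98 ± 0.99 in STZ mice on 0.1% quercetin and 6.96 ± 0.49 in controls (SD, n = 6 each), which differ by 2.02 (log2, SE 0.46, adjusted p = 0.00869 in limma). Mean Mt2 was 7.49 ± 0.84 on 0.1% quercetin and 5.96 ± 0.47 in controls, a change of 1.53 (SE 0.35, adjusted p = 0.00814). In this comparison 5.57% of the 13113 genes tested passed in either direction and 2.94% were higher, against 3 of the 8 members, all higher, with Gpx4 the third. All 6 mice of 1 group lay above all 6 of the other for these 3 members and for 2.1% of the genes tested. With the Gapdh 3' minus 5' difference as a covariate, the changes were 1.61 for Mt1 (adjusted p = 0.242) and 1.22 for Mt2 (adjusted p = 0.235), in a fit where 4 genes of 13113 passed in this comparison. Under the other 12 alternatives and without any 1 mouse, both genes passed.

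In STZ mice on the plain diet, Mt1 averaged 8.06 ± 1.29 and Mt2 7.05 ± 0.84. The log2 change against controls was 1.10 for Mt1 (SE 0.46, 95% interval 0.16 to 2.05, adjusted p = 0.212) and 1.09 for Mt2 (SE 0.35, 0.38 to 1.80, adjusted p = 0.0801). For each gene, 4 of 6 STZ mice lay above all controls. STZ replicate 1 was the lowest of its group for both. Without it, the changes were 1.49 (adjusted p = 0.0497) for Mt1 and 1.33 (adjusted p = 0.0247) for Mt2, so 1 mouse decided the side of the threshold.

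Mice on 0.5% quercetin averaged 7.76 ± 0.69 for Mt1 and 6.37 ± 0.49 for Mt2. Against controls these are log2 changes of 0.80 (adjusted p = 0.504) and 0.41 (adjusted p = 0.682). Without replicates 5 and 6 on 0.5% quercetin, they were 1.03 (adjusted p = 0.334) for Mt1 and 0.61 (adjusted p = 0.467) for Mt2. In this comparison 0.13% of the genes tested passed and 0 of the 8 members did in limma, with 1 member, Sod1, and 12.3% of genes at an unadjusted p under 0.05. Without the same 2 mice, 3.29% of the genes (432) and 1 of the 8 members, Sod1, passed.

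Among mice given streptozotocin, 0.1% quercetin against the plain diet gave 0.91 for Mt1 (SE 0.46, 95% interval -0.03 to 1.86, adjusted p = 0.936) and 0.44 for Mt2 (SE 0.35, -0.27 to 1.16, adjusted p = 0.992). The 0.5% diet against the plain diet gave -0.31 for Mt1 (95% interval -1.25 to 0.64, adjusted p = 0.926) and -0.68 for Mt2 (-1.39 to 0.03, adjusted p = 0.673). With replicates 5 and 6 left out, the 0.5% diet gave -0.07 for Mt1 and -0.48 for Mt2 (adjusted p = 0.998 each), so the Mt1 value rested mainly on those 2 mice. The 4 intervals over all mice span 0.

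Between the doses, 0.5% against 0.1% quercetin gave -1.22 for Mt1 (SE 0.46, unadjusted p = 0.0135, adjusted p = 0.501) and -1.12 for Mt2 (SE 0.35, 95% interval -1.84 to -0.41, unadjusted p = 0.00322, adjusted p = 0.418). For Mt1, 3 of 6 mice on the higher dose lay below all mice on the lower dose, and for Mt2 4 of 6 did. Without replicates 5 and 6 on 0.5% quercetin, these values were -0.99 for Mt1 (adjusted p = 0.976) and -0.92 for Mt2 (adjusted p = 0.929). In limma, 0 of 13113 genes passed between any 2 of the 3 streptozotocin groups. At an unadjusted p under 0.05 there were 687 genes (5.24%) for 0.1% quercetin against STZ, 985 (7.51%) for 0.5% quercetin against STZ and 1094 (8.34%) for 0.5% against 0.1% quercetin. The members at that level numbered 1, 0 and 3, in that order of comparisons.

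The signals of the pair moved together from mouse to mouse. Mt1 was read by an _s_at probe set, whose probes can also match other transcripts, and signal shared with Mt2 was not tested. With group means removed, Mt1 and Mt2 had a Pearson r of 0.93 and a Spearman rho of 0.91 over the 24 mice. Each had a permutation p of 1e-05 (0.00028 adjusted over the 28 pairs of members), the smallest that 100000 permutations of mice within groups can give. Within groups, r was 0.97 in STZ mice, 0.92 on 0.1% quercetin, 0.94 on 0.5% quercetin and 0.90 in controls (n = 6 each, exact permutation p of 0.00556, 0.0389, 0.0139 and 0.0389). Without the 2 mice farthest from the median, STZ replicate 1 and 0.1% quercetin replicate 2, r was 0.92 and rho 0.90. No other of the 28 pairs passed, and the next highest r was 0.38 for Sod1 and Sod2 (permutation p = 0.168, adjusted p = 0.819). Values as deposited gave r = 0.94 for Mt1 and Mt2, and 15 of the 28 pairs passed on those unscaled values.

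**Figure D2:**
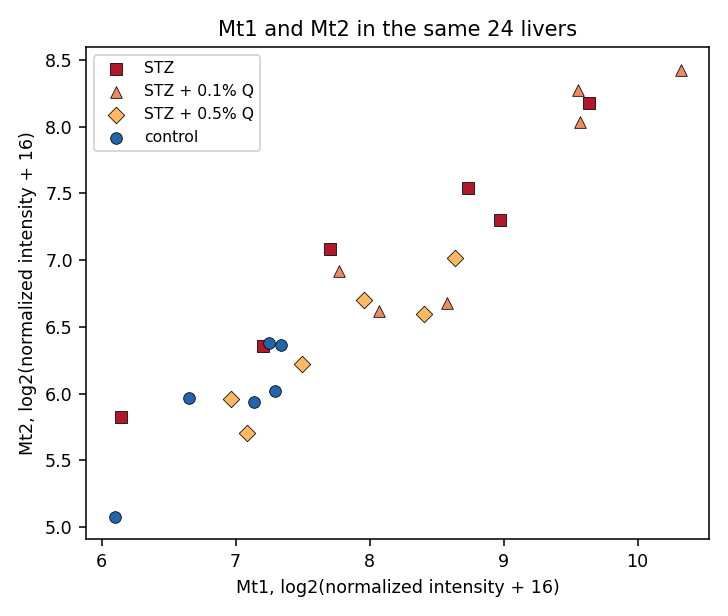
Mt2 level (vertical) against Mt1 level (horizontal) in the same 24 livers, both as log2(normalized intensity + 16), with 1 symbol per mouse and a shape per group. The mice of all 4 groups lie along 1 band, with 3 mice on 0.1% quercetin and 1 STZ mouse at the upper end and a control and an STZ mouse at the lower end.

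The spread between mice of a group placed both metallothioneins at the far end of the 13113 genes. The within-group SD of Mt1 was 0.92 on the log2 scale, above 99.9% of genes, and that of Mt2 was 0.69, above 99.7%, where the median gene had 0.19. Over all arrays the highest Mt1 level was 18.7 times the lowest on the scale with the constant, and that of Mt2 10.2 times. The enzymes differed from this. Sod1 had an SD of 0.21 (above 62.7% of genes), Gsr 0.13 (above 11.9%), Cat 0.13 (above 9.17%), Gpx4 0.12 (above 7.68%), Sod2 0.10 (above 2.59%) and Gpx1 0.08 (above 0.785%).

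**Figure D3:**
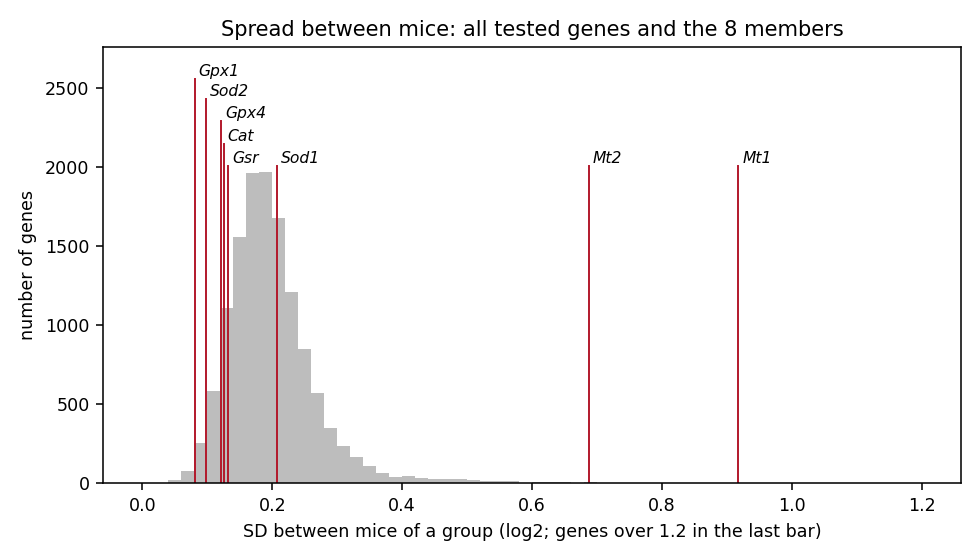
Histogram of the SD between mice of a group (log2 scale, horizontal) over the 13113 genes tested, with the 8 members as red lines. Mt1 at 0.92 and Mt2 at 0.69 stand in the right tail, and Gpx1 at 0.08 and Sod2 at 0.10 in the left.

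The 5 genes outside the list whose levels were most like the mean of Mt1 and Mt2 over the 24 arrays were Lcn2 (r = 0.89, and 0.81 with group means removed), Cyp17a1 (0.85 and 0.80), Rnase4 (0.85 and 0.77), Mknk2 (0.84 and 0.69) and Slc16a5 (0.84 and 0.75). Lcn2 encodes lipocalin-2, an iron-siderophore-binding protein of the acute-phase response, and Cyp17a1 a steroid hydroxylase. These correlations are a description over arrays that share libraries and groups. The genes were picked with group means kept, so they tend to share the differences of Mt1 and Mt2 between groups. Their changes are therefore a description and no separate support. In STZ mice on 0.1% quercetin against controls, the log2 change was 1.71 for Lcn2 (adjusted p = 0.00401), 1.97 for Cyp17a1 (0.00154), 0.84 for Mknk2 (0.00244), 0.68 for Slc16a5 (0.00917) and 0.33 for Rnase4 (0.0664). In STZ mice against controls, Cyp17a1 rose by 1.77 (adjusted p = 0.0053) and Slc16a5 by 0.68 (0.0138), while Lcn2 stood at 1.14 (0.072), Mknk2 at 0.50 (0.0883) and Rnase4 at 0.15 (0.517).

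A second, dim probe set of Mt1, 1451612_at, had a mean deposited intensity of 7.77. It gave 0.27 for 0.1% quercetin against control (adjusted p = 0.344 over all probe sets) and 0.11 for STZ against control (0.778). In these comparisons it did not show the change of 1422557_s_at, which represents the gene. On 0.5% quercetin against controls it gave -0.15 (adjusted p = 0.739), opposite in sign to the 0.80 of 1422557_s_at. For 0.5% against 0.1% quercetin it gave -0.42 (limma unadjusted p = 0.00622, adjusted p = 0.503), the same sign as the -1.22 of 1422557_s_at. Mt2 was read by 1 probe set.

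Sod1, the copper and zinc superoxide dismutase of the cytosol, was lower in STZ livers. Its log2 level was 10.003, 10.17 and 10.43 (lowest, median and highest) in STZ mice, 10.09, 10.26 and 10.44 on 0.1% quercetin, 9.77, 10.11 and 10.75 on 0.5% quercetin, and 10.30, 10.64 and 10.79 in controls. In the STZ group 5 of 6 mice lay below all controls, and on 0.5% quercetin 5 of 6 did, with replicate 5 at 10.75 inside the range of the controls.

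Mean Sod1 was 10.18 ± 0.15 in STZ mice and 10.61 ± 0.17 in controls (SD, n = 6 each). The log2 change was -0.42 (SE 0.12, limma adjusted p = 0.0372), or -25.5% on the scale with the constant. It was the only 1 of the 8 members to pass in this comparison, in which 3.72% of genes passed and 1.69% were lower. On 0.1% quercetin Sod1 averaged 10.27 ± 0.12, or -0.33 against controls (SE 0.12, adjusted p = 0.0933), and on 0.5% quercetin 10.16 ± 0.33, or -0.45 against controls (SE 0.12, adjusted p = 0.1). Without replicates 5 and 6, the 0.5% group differed from controls by -0.61 (adjusted p = 0.000594) and the 0.1% group by -0.33 (adjusted p = 0.0248), and both then passed. Those mice were left out for their likeness to controls, so the value of the 0.5% group is no separate test of its difference from controls. Against STZ mice, Sod1 differed by 0.09 on 0.1% (95% interval -0.15 to 0.33, adjusted p = 0.992) and -0.03 on 0.5% quercetin (-0.26 to 0.21, adjusted p = 0.982), or -0.18 without replicates 5 and 6 (adjusted p = 0.998). Between the doses, 0.5% against 0.1% quercetin gave -0.12 for Sod1, or -0.27 without those 2 mice (adjusted p = 0.919).

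The fall of Sod1 in STZ mice was close to the threshold. It did not pass without any 1 of control replicates 1, 3, 4, 5 and 6 or STZ replicates 1, 2, 3, 5 and 6, at changes of -0.44 to -0.39 and adjusted p of 0.0539 to 0.0933. It was also lost on values as deposited (-0.37, adjusted p = 0.379), with a constant of 1 (-0.43, 0.0651), with the mean of all its probe sets (-0.18, 0.254) and with the probe set of largest variance (-0.56, 0.0614). With the Gapdh difference as a covariate, the change of Sod1 was -0.18 (adjusted p = 0.764). In that fit 6 of 13113 genes passed in this comparison, and RNA quality and group cannot be told apart.

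The probe sets of Sod1 differed among themselves in the comparison of STZ mice with controls. Probe set 1451124_at gave -0.56 (SE 0.16, adjusted p = 0.0627 over all probe sets), with 4 of 6 STZ mice below all controls. The dim 1435304_at and 1440222_at, with mean deposited intensities of 23.3 and 22.1, gave -0.01 and 0.28 (adjusted p = 0.446 for 1440222_at), and 1447761_x_at lay under the filter. On 0.1% quercetin, 1451124_at gave 0.37 against STZ mice (limma unadjusted p = 0.0313, adjusted p = 0.963) and -0.19 against controls (adjusted p = 0.615). On 0.5% quercetin, 1451124_at gave 0.04 against STZ mice, -0.52 against controls (adjusted p = 0.19) and -0.33 against the 0.1% group (adjusted p = 0.631).

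Sod2, the manganese enzyme of mitochondria, was close to flat. Its mean log2 level was 9.99 ± 0.10 in STZ mice, 9.97 ± 0.09 on 0.1% quercetin, 10.01 ± 0.13 on 0.5% quercetin and 10.05 ± 0.06 in controls (SD, n = 6 each). All 4 groups overlapped, from 9.75 in the lowest mouse on 0.5% quercetin to 10.16 in the highest control. The change in STZ mice against controls was -0.05 (95% interval -0.20 to 0.09, adjusted p = 0.771), and the other 5 comparisons of Sod2 gave -0.08 to 0.04. The 0.5% group without replicates 5 and 6 gave -0.03 for Sod2 against STZ mice and -0.08 against controls, where all 6 mice gave 0.01 and -0.04. Of its other probe sets, 1454976_at gave -0.21 for STZ against control (adjusted p = 0.289), with 4 of 6 mice below all controls, 1417193_at gave 0.06 and the dim 1417194_at gave -0.06.

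Cat, the peroxisomal catalase, did not pass in any comparison either. It had log2 levels of 11.73, 11.75 and 11.86 in STZ mice, 11.48, 11.66 and 11.82 on 0.1% quercetin, 11.54, 11.83 and 11.94 on 0.5% quercetin, and 11.50, 11.70 and 11.97 in controls. The STZ mice were the tightest group and lay inside the range of the controls. Their difference from controls was 0.07 (SE 0.08, 95% interval -0.10 to 0.24, adjusted p = 0.743). The 0.1% group differed from STZ mice by -0.10 (adjusted p = 0.992), and the 0.5% group differed from the 0.1% group by 0.13 (adjusted p = 0.702), or 0.17 without replicates 5 and 6. Against STZ mice the 0.5% group gave 0.03 for Cat (95% interval -0.14 to 0.20), or 0.07 without its replicates 5 and 6. Against controls it gave 0.10, or 0.14 without them (adjusted p = 0.447). The second Cat probe set, 1416429_a_at, gave 0.01 for STZ against control.

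**Figure D4:**
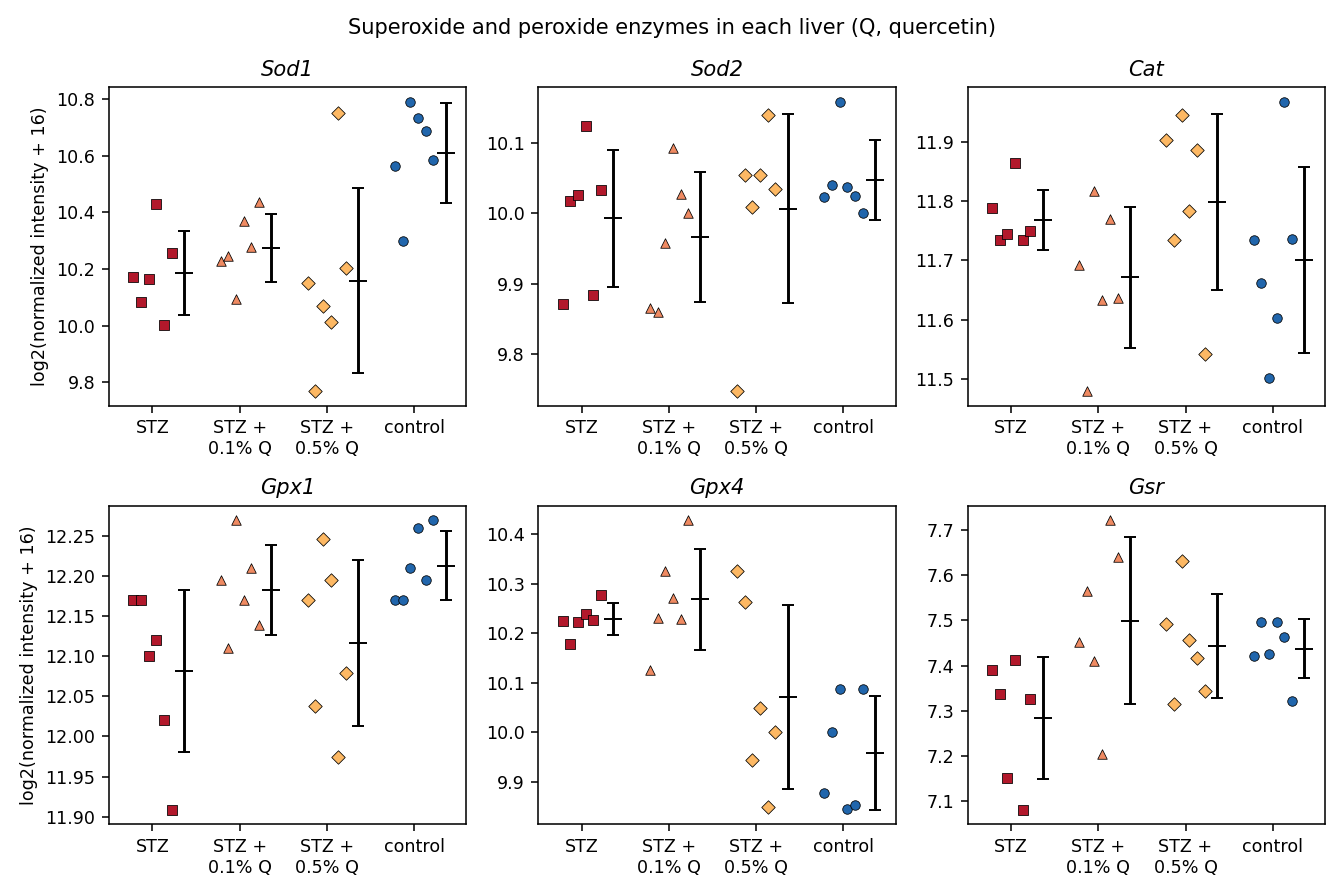
Levels of Sod1, Sod2, Cat, Gpx1, Gpx4 and Gsr as log2(normalized intensity + 16) in each of the 24 livers, each panel with its own vertical scale, with the 3 streptozotocin groups left of the controls and mean ± SD (n = 6) beside the symbols. Sod1 lies lower in most mice given streptozotocin than in controls, and Gpx4 lies higher in all STZ mice and all mice on 0.1% quercetin than in controls.

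Gpx4, the selenoenzyme that reduces lipid hydroperoxides in membranes, was higher in mice on 0.1% quercetin than in controls. Its log2 level was 10.18, 10.23 and 10.28 in STZ mice, 10.13, 10.25 and 10.43 on 0.1% quercetin, 9.85, 10.03 and 10.33 on 0.5% quercetin, and 9.84, 9.94 and 10.09 in controls. All mice of the STZ and 0.1% quercetin groups lay above all controls, and the 0.5% quercetin mice ran through both ranges.

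Mean Gpx4 was 10.27 ± 0.10 on 0.1% quercetin and 9.96 ± 0.11 in controls, a log2 change of 0.31 (SE 0.08, 1.24-fold, adjusted p = 0.0196). In STZ mice it was 10.23 ± 0.03, a change of 0.27 against controls (SE 0.08, adjusted p = 0.0575), which did not pass although no STZ mouse overlapped the controls. In the fit without 0.5% quercetin replicates 5 and 6, the same change of Gpx4 passed (adjusted p = 0.0356). Of the genes tested, 1.96% had all 6 STZ mice above all 6 controls, and Gpx4 was the 1 member that did. In mice on 0.5% quercetin Gpx4 averaged 10.07 ± 0.19, or 0.11 against controls (adjusted p = 0.605), -0.16 against STZ mice (SE 0.08, adjusted p = 0.673) and -0.20 against the 0.1% group (SE 0.08, unadjusted p = 0.0208, adjusted p = 0.53). Without replicates 5 and 6 on 0.5% quercetin, these were 0.19 (adjusted p = 0.26), -0.08 (0.998) and -0.12 (0.976) for Gpx4.

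The call of Gpx4 on 0.1% quercetin against controls was lost on values as deposited (0.32, adjusted p = 0.476), with the probe set of largest variance (0.41, adjusted p = 0.151), with each array divided by its median (0.21, adjusted p = 0.274), without control replicate 4 (0.29, adjusted p = 0.0507), without 0.1% quercetin replicate 6 (0.28, adjusted p = 0.0598) and with the Gapdh difference as a covariate (0.28, adjusted p = 0.238). The other Gpx4 probe set, 1456193_x_at, gave 0.41 on 0.1% quercetin (adjusted p = 0.152 over all probe sets, 5 of 6 mice above all controls) and 0.40 in STZ mice (SE 0.16, adjusted p = 0.207, 6 of 6 above), so it stood in the same direction and did not pass. On 0.5% quercetin against controls it gave -0.07 (adjusted p = 0.908), opposite in sign to the 0.11 of 1451695_a_at. Against STZ mice the 0.5% group gave -0.47 on 1456193_x_at (adjusted p = 0.571), where 1451695_a_at gave -0.16. Against the 0.1% group it gave -0.48 (adjusted p = 0.469), where 1451695_a_at gave -0.20.

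Gpx1, the abundant selenoenzyme that reduces soluble peroxides, had log2 levels of 11.91, 12.11 and 12.17 in STZ mice, 12.11, 12.18 and 12.27 on 0.1% quercetin, 11.97, 12.12 and 12.25 on 0.5% quercetin, and 12.17, 12.20 and 12.27 in controls. Its means were 12.08 ± 0.10 in STZ mice, 12.18 ± 0.06 on 0.1% quercetin, 12.12 ± 0.10 on 0.5% quercetin and 12.21 ± 0.04 in controls (SD, n = 6 each). The STZ mean was lowest of the 4 and 4 of 6 STZ mice lay below all controls. The change was -0.13 (SE 0.07, 95% interval -0.27 to 0.00, adjusted p = 0.317). Gpx1 differed from STZ mice by 0.10 on 0.1% quercetin (adjusted p = 0.984) and by 0.04 on 0.5% quercetin (adjusted p = 0.944), or 0.08 without replicates 5 and 6. The quercetin groups stood at -0.03 (0.1%, adjusted p = 0.86) and -0.10 (0.5%, adjusted p = 0.596) against controls, the second of which was -0.05 without replicates 5 and 6. The whole range of Gpx1 over the 24 mice was 1.28-fold, against 1.33-fold for Sod2 and 1.56-fold for Gsr.

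Gsr, glutathione reductase, had log2 levels of 7.08, 7.33 and 7.41 in STZ mice, 7.20, 7.51 and 7.72 on 0.1% quercetin, 7.31, 7.44 and 7.63 on 0.5% quercetin, and 7.32, 7.44 and 7.50 in controls. STZ mice were lowest on average, and in each quercetin group 4 of 6 mice lay above every STZ mouse. The difference from STZ mice was 0.22 on 0.1% quercetin (SE 0.08, 95% interval 0.04 to 0.39, unadjusted p = 0.0163, adjusted p = 0.885) and 0.16 on 0.5% quercetin (SE 0.08, -0.01 to 0.33, adjusted p = 0.696). Without replicates 5 and 6, the 0.5% group gave 0.19 for Gsr (adjusted p = 0.998). STZ mice against controls gave -0.15 (SE 0.08, adjusted p = 0.365), and the second probe set of Gsr, 1421816_at, gave -0.10. Against STZ mice 1421816_at gave 0.11 on 0.1% quercetin and -0.03 on 0.5% quercetin, with 0 of 6 mice above every STZ mouse in either group, so its sign on the higher dose was opposite to that of 1421817_at. Against controls, Gsr differed by 0.06 on 0.1% quercetin (95% interval -0.11 to 0.23, adjusted p = 0.751) and by 0.00 on 0.5% quercetin (-0.17 to 0.18, adjusted p = 0.99), or 0.04 without replicates 5 and 6. None of these passed.

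**Figure D5:**
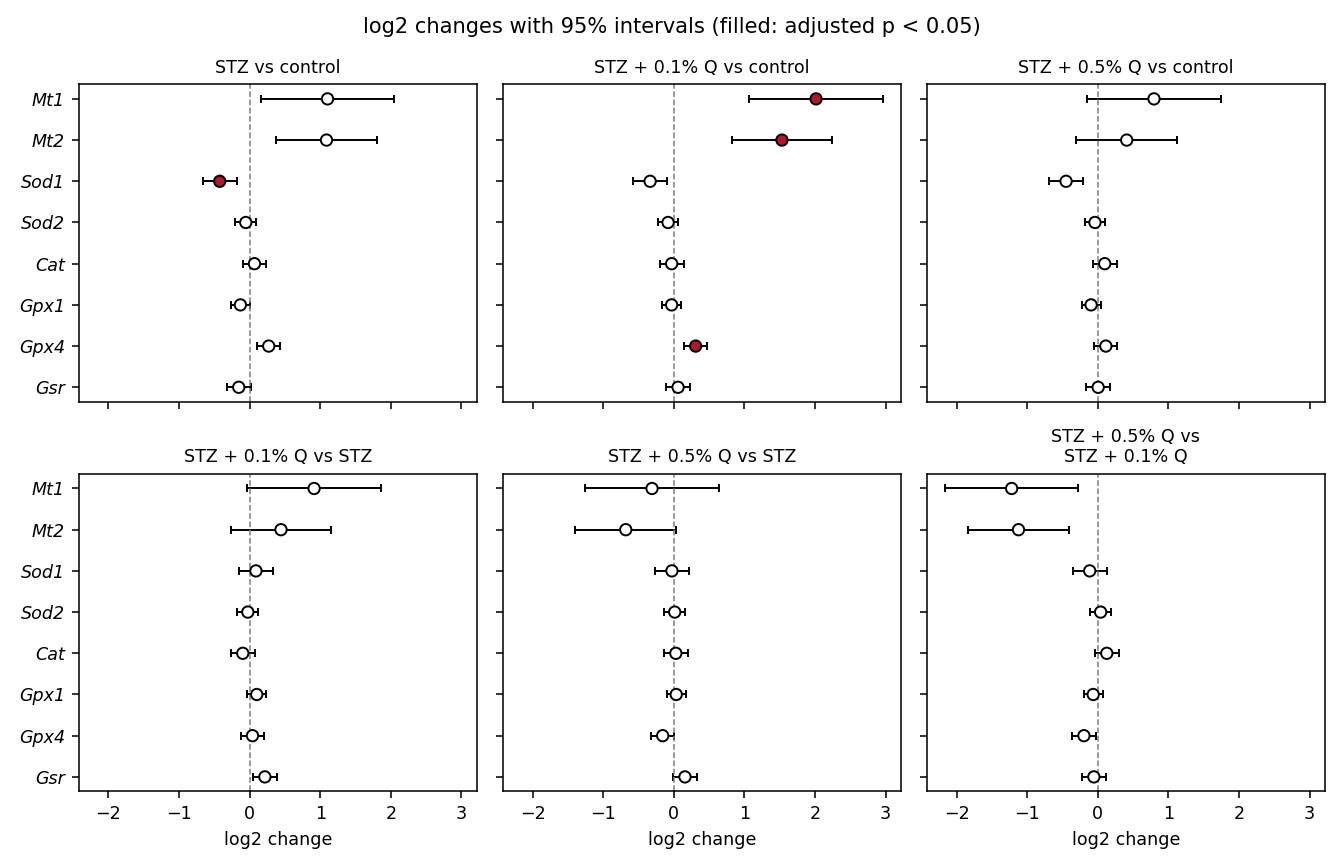
Log2 changes of the 8 members (rows) in the 6 comparisons (panels), with 95% intervals from the limma fit and filled symbols where the adjusted p was under 0.05. The filled symbols are Sod1 in STZ against control and Mt1, Mt2 and Gpx4 in 0.1% quercetin against control, and the lower panels, between groups given streptozotocin, have none.

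The members' changes went both ways within each comparison. Their median log2 change was 0.01 in STZ mice against controls, where that of all genes tested was -0.02, and 0.02 for 0.1% quercetin and 0.05 for 0.5% quercetin against controls, where that of all genes was -0.01 in both. Against STZ mice it was 0.10 for 0.1% quercetin and -0.01 for 0.5% quercetin, where those of all genes were 0.01 and 0.00. For 0.5% against 0.1% quercetin it was -0.09, where that of all genes was -0.0027. Against controls, 4 of 8 members were above 0 in STZ mice, 4 on 0.1% and 5 on 0.5% quercetin. The shares of all genes above 0 were 44.7%, 46.2% and 45.9%, in that order. Against STZ mice, 6 were above 0 on 0.1% quercetin (52.1% of all genes) and 4 on 0.5% quercetin (50.5%). Between the doses 2 were above 0 (49.1%). The 0.5% group's median without replicates 5 and 6 was -0.05 against STZ mice, -0.07 against the 0.1% group and 0.09 against controls. The 3 comparisons with controls share the control mice, and those with STZ mice share the STZ mice.

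Of the other superoxide and peroxide enzymes, 8 of 10 were tested. Prdx4, the peroxiredoxin of the endoplasmic reticulum, was lower in STZ mice, at -0.34 (SE 0.09, adjusted p = 0.0363, 6 of 6 below all controls), and 0 of 8 were higher. In mice on 0.5% quercetin Prdx4 stood 0.28 above STZ mice (adjusted p = 0.559), with 5 of 6 above every STZ mouse, and 0.17 above them without replicates 5 and 6. None of the 8 passed on 0.1% quercetin against controls, where Ccs, the copper chaperone of Sod1, had the smallest p (-0.22, adjusted p = 0.0996, 5 of 6 below all controls).

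Of 12 thioredoxin and glutaredoxin genes, 0 passed in STZ mice, where Msrb1, a selenoprotein that repairs oxidized methionine, had the smallest p (-0.23, adjusted p = 0.0791). On 0.1% quercetin against controls 1 was higher and 0 were lower. This was Srxn1, sulfiredoxin, which restores overoxidized peroxiredoxins, at 0.73 (SE 0.16, adjusted p = 0.00661, 6 of 6 above all controls). Srxn1 differed by 0.50 in STZ mice against controls (adjusted p = 0.0829), by -0.44 on 0.5% quercetin against STZ mice (adjusted p = 0.572) and by -0.67 on 0.5% against 0.1% quercetin (adjusted p = 0.35). The last 2 values were -0.32 and -0.55 without replicates 5 and 6.

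Of 10 tested genes of glutathione synthesis and NADPH supply, 0 passed in STZ mice, with Gss at 0.30 having the smallest p (adjusted p = 0.245). On 0.1% quercetin against controls 4 were higher and 1 was lower, where 5.57% of all genes tested passed in either direction. Gss, glutathione synthetase, rose by 0.50 (adjusted p = 0.0261). Oplah, 5-oxoprolinase of the glutathione cycle, rose by 0.44 (adjusted p = 0.0439, 6 of 6 above all controls), and Gclm, the modifier subunit of the first enzyme of glutathione synthesis, by 0.37 (0.0444). Nnt, a mitochondrial source of NADPH, rose by 0.30 (adjusted p = 0.0275), and Idh1, a cytosolic source, fell by 0.33 (0.0105). Me1, malic enzyme, had the smallest p of the list on 0.1% quercetin against STZ mice (-0.81, adjusted p = 0.87), and stood at 0.78 on 0.5% against 0.1% quercetin (adjusted p = 0.422).

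None of 14 genes of zinc and copper handling, Mtf1 among them, passed in any of the 6 comparisons in limma, with or without replicates 5 and 6 on 0.5% quercetin. The smallest p was that of Atox1 in STZ mice against controls (-0.10, adjusted p = 0.489) and that of Slc30a10 on 0.1% quercetin against controls (-0.35, adjusted p = 0.284). None of 7 genes of selenoprotein synthesis passed in any comparison, with Pstk, the kinase that prepares the selenocysteine tRNA, at -0.38 in STZ mice against controls (adjusted p = 0.0938) and Eefsec at 0.20 on 0.1% quercetin against controls (adjusted p = 0.247).

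Of 12 tested genes for sources of superoxide and peroxide, 1 was higher and 2 were lower in STZ mice. Cyba, a subunit of NADPH oxidases, rose by 0.35 (adjusted p = 0.0257), Nox4 fell by 0.51 (0.0121) and Hao1, a peroxisomal oxidase of hepatocytes, fell by 0.37 (0.0325). On 0.1% quercetin against controls 3 were higher and 2 were lower. Cybb, the phagocyte oxidase, rose by 0.49 (adjusted p = 0.00654), Xdh, xanthine dehydrogenase, by 0.47 (0.017) and Cyba by 0.30 (0.0408), and Nox4 fell by 0.57 (0.00351) and Hao1 by 0.51 (0.00258). Against controls, 3.72% of all genes tested passed in STZ mice and 5.57% on 0.1% quercetin. With the Gapdh 3' minus 5' difference as a covariate, 6 and 4 of the 13113 genes passed, in that order. No gene of these 6 lists passed between any 2 of the streptozotocin groups, or, with all 6 mice, on 0.5% quercetin against controls. Leaving out replicates 5 and 6 on 0.5% quercetin, 4 genes of these lists passed in that group against controls, where 3.29% of all genes tested did. Xdh (0.51, adjusted p = 0.0137), Cybb (0.42, 0.0474) and Oplah (0.42, 0.0273) were higher and Nox4 was lower (-0.45, 0.0217). For 0.1% quercetin against STZ mice, the smallest p of the remaining lists was that of Slc30a10 (-0.44, adjusted p = 0.885), Pstk (0.29, 0.908), Srxn1 (0.23, 0.986), Prdx4 (0.13, 0.986) and Hao1 (-0.14, 0.986). With all 24 mice, for 0.5% quercetin against STZ mice, it was that of Secisbp2 (0.22, adjusted p = 0.586), Pgd (-0.39, 0.625), Cyba (-0.19, 0.63) and Slc30a10 (-0.33, 0.693), beside Prdx4 and Srxn1 above. Between the doses, Hao1 (0.33, adjusted p = 0.402), Slc30a1 (-0.28, 0.531), Prdx4 (0.15, 0.701) and Sephs2 (0.15, 0.723) followed Srxn1 and Me1. On 0.5% quercetin against controls, it was that of Cybb (0.34, adjusted p = 0.179), Ccs (-0.18, 0.348), Atox1 (-0.15, 0.361), Ggct (-0.31, 0.4), Sephs2 (0.21, 0.419) and Txnip (0.33, 0.44). All of these fell short of the threshold with all 24 mice.

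Markers of other liver cells moved in the same comparisons. Of 9 macrophage and Kupffer cell markers tested of 10 listed, 3 were higher in STZ mice (Cd5l at 0.58, C1qa at 0.48 and C1qb at 0.62) and 4 on 0.1% quercetin (also Cd68, at 0.46) against controls. Their summed intensity was 1522 to 1957 in STZ mice, 1606 to 1958 on 0.1% quercetin, 1157 to 1790 on 0.5% quercetin and 1143 to 1470 in controls, and Marco lay under the filter. Lyve1 was the 1 of 7 endothelial markers to pass, higher in STZ mice by 1.02 (adjusted p = 0.00181) and on 0.1% quercetin by 1.02 (0.00123). Of 7 stellate cell markers Dcn was higher in both groups and Reln lower on 0.1% quercetin. Of 4 B and plasma cell markers Jchain and Ighm were lower in both, with summed intensities of 41.5 to 94.8 in STZ mice, 46.4 to 82.3 on 0.1% quercetin, 56.5 to 234 on 0.5% quercetin and 159 to 312 in controls. Alas2, 1 of 3 erythroid markers tested, was lower on 0.1% quercetin, and Cela1, 1 of 2 exocrine pancreas markers tested, was lower in both. With all mice kept, none of 4 neutrophil, 3 bile duct and 1 T or NK cell markers passed in limma. More markers passed against controls without the 2 mice on 0.5% quercetin that lay apart from their own group. On 0.5% quercetin 5 of 9 macrophage markers (Cd5l, C1qa, C1qb, C1qc and Cd68) and Lyve1 were then higher, where 3.29% of all genes tested passed. Reln, Cd79b, Jchain, Ighm and Cela1 were lower there. In that fit 5 macrophage markers were higher in STZ mice and 5 on 0.1% quercetin. Reln was also lower in STZ mice, and Sox9, a bile duct marker, on 0.1% quercetin. Of all genes tested, 4.96% passed in STZ mice and 6.83% on 0.1% quercetin in that fit, against 3.72% and 5.57% with all mice kept. The part of these cells in the changes of the members was not tested.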

How the data were processed

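Each of 24 livers, 6 per group, was read on 1 Affymetrix 3' expression array from biotin-labelled cRNA, per the labels' protocols. The deposited values are linear intensities, 1 per probe set and array. Their summary algorithm, background correction and scaling are not given in the sources used here, and no detection call was used. Array brightness differed, so quantile normalization over the 24 arrays was applied to the deposited intensities before taking log2(value + 16). No column of per-sample values was left unused (0).

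Groups and replicate numbers came from the sample labels. Where nothing in the labels ties mice to cages or days, the tests take the 6 mice of a group as separate samples. Gene symbols are those of the platform table and can be old. Of 45101 probe sets, 34958 had 1 symbol, 932 several and 9211 none listed. A gene was represented by its single-symbol probe set with the highest mean, and a gene was kept where that mean reached the 40th percentile over the array (4.31 on the log2 scale), as it did for 13113 of 18193. A single limma fit (version 3.58.1, R 4.3.3) with a mean for each of the 4 groups gave the two-sided tests, adjusted by Benjamini-Hochberg for all genes tested, at a threshold of 0.05. The count of the member tests was made on the 8 genes found. Probe sets were fitted likewise over all probe sets past the filter. Correlations and exact tests used Python 3.11.15 with scipy 1.17.1. The fit was tested on simulated data.

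The members, the 6 pathway lists, the 10 marker lists and the tests were chosen with earlier results of these data known. All members were named, as were the 5 genes most like Mt1 and Mt2, up to 4 passing genes of each pathway list and comparison by size of change, or the gene with the smallest p where none passed. Further genes, such as Nnt, Cyba on 0.1% quercetin and the repeat values of Prdx4, Srxn1 and Me1, were added after their values were seen. Promoters came from the RefSeq table of GRCm38.p6. There were 13 alternatives besides leaving out each mouse. Same-numbered mice mostly did not deviate together (r from -0.14 to 0.32 over 36 pairs, median 0.01, 5 over 0.1), so the numbers were not taken as pairs. The highest r was that of replicate 6 in the STZ and 0.1% quercetin groups. Both of those mice had the highest Mt1 and Mt2 levels of their groups, and a factor shared by them was not tested. The precision of every value is limited by the number of arrays.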

Additional observations from a re-analysis of the deposited data

Results flagged for a closer look

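In 72 groups of 6 mice over the 18 probe sets past the filter, the highest or lowest mouse stood apart from its group by Dixon's criterion (critical value 0.625) in 10. Chance gives about 1 in 20 groups. For Mt2, control replicate 1 was lowest at a log2 level of 5.08, where the other controls had 5.94 to 6.38. For Sod1, STZ replicate 5 was highest on 1435304_at at 5.57 (others 5.05 to 5.21). On the Sod1 probe set 1440222_at, 0.5% quercetin replicate 1 was lowest at 4.85 (others 5.38 to 5.55) and control replicate 3 lowest at 4.13 (others 4.95 to 5.45).

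For Sod2, 0.1% quercetin replicate 2 was lowest on 1417193_at at 9.41 (others 9.65 to 9.73) and control replicate 1 highest at 9.69 (others 9.53 to 9.58). On 1448610_a_at, which represents Sod2, 0.5% quercetin replicate 1 was lowest at 9.75 (others 10.01 to 10.14) and control replicate 3 highest at 10.16 (others 10.0002 to 10.04). For Gpx4, control replicate 5 was lowest on 1456193_x_at at 9.25 (others 9.93 to 10.12). For Gsr, STZ replicate 1 was highest on 1421816_at at 7.85 (others 7.09 to 7.36), a probe set that does not represent the gene.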

How the results depend on the processing

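In STZ mice against controls, 1 member passed. The number was 0 on values as deposited, with a constant of 1, with the mean of all probe sets of a gene, with the probe set of largest variance and with the Gapdh difference as a covariate, 2 with a constant of 64, the 60th percentile filter, only the 2 groups compared or without 0.5% quercetin replicates 5 and 6, and 3 with array weights. It was 0 to 2 leaving out each mouse. The additions were Gpx4, Mt2 with array weights, and Mt1 and Mt2 without STZ replicate 1, where Sod1 was lost. On 0.1% quercetin against controls, where 3 passed, the Gapdh covariate left 0, values as deposited and the probe set of largest variance left 2 (Gpx4 lost), and leaving out each mouse gave 2 to 4. Only the 2 groups compared, or no 0.5% quercetin replicates 5 and 6, gave 4 (Sod1 gained), and division by the median gave 3, with Sod1 (-0.45, adjusted p = 0.0288) in place of Gpx4. On 0.5% quercetin against controls, where 0 passed, 1 member (Sod1) passed with each array divided by its median (-0.64, adjusted p = 0.00619), without replicates 5 and 6 and with array weights (-0.50, adjusted p = 0.0254), and 0 to 1 leaving out each mouse (without replicate 5, Sod1 -0.57, adjusted p = 0.00417). The other 3 comparisons gave 0 throughout. Of 28 pairs, 1 passed, against 15 on values as deposited. The cause of these differences was not tested. Of 1776 recomputed changes of single members none passed in the opposite direction to the reported one, 23 lost and 18 gained the call, and 26 that did not pass moved by more than the SD between mice.

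Over all genes, 488 passed in STZ mice against controls (54.5% higher), against 161 on values as deposited (74.5% higher), 6 with the Gapdh covariate, 787 with array weights, 246 without STZ replicate 6, 302 without control replicate 3 and 322 without STZ replicate 3. Division by the array median gave 449 (37.9% higher). On 0.1% quercetin 731 passed (52.7% higher), against 217 as deposited, 4 with the Gapdh covariate, 440 without 0.1% quercetin replicate 5, 460 without its replicate 6 and 761 after division by the median (29.2% higher). On 0.5% quercetin 17 passed (41.2% higher), against 8 as deposited (25% higher), 686 after division by the median (5.39% higher), 6 with a constant of 1, 9 with 64, 3 without a filter, 0 with only the 2 groups (limma), 432 without replicates 5 and 6, 106 with array weights, 0 with the Gapdh covariate (limma) and 1 to 150 leaving out each mouse.

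With the replicate number as a block (replicate block), the counts of members were 1, 0, 0, 0, 3 and 0 as without it, the r of Mt1 and Mt2 was 0.95, and 411, 645 and 6 genes passed in STZ, 0.1% and 0.5% quercetin mice against controls. Of 24 arrays, 6 correlated best with their own number.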
